A study of Danio rerio with 16 samples.

Results

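The 80 zebrafish genes described here are those whose level set 1 of 4 groups of gonad libraries furthest apart from the other 3, either above or below every library of the other groups. They were chosen by their measured values from a table of 31953 genes. Counts were scaled by the library total to CPM, the counts of a gene per M (mega, the unit of library totals here) counts of its library, and the 17641 genes with a mean between 1 and 500 CPM over 16 libraries were kept. The gap of a gene is the distance, on the scale of log2(CPM + 0.5), between the 4 libraries of the group that stands apart and the nearest of the other 12. A gap above 0 means that the group's range does not overlap that of the others, which held for 946 of the kept genes (5.36%). The 80 largest gaps defined the members. The last member, elnb, had a gap of 0.2382, and the next gene, si:ch73-334d15.1, had one of 0.2379. Since the rule used the very differences between groups, the levels below are descriptions, and the calls that a model makes for the members are given once, near the end, with nothing read from those for the group that stands apart.

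The RNA came from pooled gonads of juvenile fish of a CRISPR-Cas9 line, made with 2 guide RNAs, in which the gene of the microRNA miR-214 is mutated. All 4 groups carry at least 1 mutant copy together with the germ-cell reporter transgene vasa:eGFP, and there is no wild-type group. The labels give the strain as mz 06de and the breed as TUE, and they put the age at 31 days after fertilization in the titles but at 27 days in another field. In the maternal cross a homozygous mutant mother was mated to a heterozygous father, and in the paternal cross a heterozygous mother was mated to a homozygous mutant father. Homozygous offspring are called KO and heterozygous offspring HET, so each cross gives a KO and a HET group of 4 libraries, here called maternal-cross or paternal-cross KO and HET. A library held 7 gonads in the maternal-cross HET group, 9 in the paternal-cross HET group, and 8 or 9 in both KO groups. The labels give neither the sex of the fish nor the number of families behind a group, so the parents' genotype and the family cannot be told apart.

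MicroRNAs are short RNAs that guide the silencing machinery to matching sites in messenger RNAs. The young zebrafish gonad first forms early oocytes in all fish and then turns into an ovary or a testis, while somatic cells, connective tissue and immune cells around the germ cells change with it. RNA of a whole gonad therefore mixes germ cells with supporting cells, stroma, vessels and leukocytes, and fewer cells of a type cannot be told apart from less RNA per cell. The labelled tissue held in every library: 11 germ cell markers summed to between 3522 and 4623 CPM, and 11 oocyte markers summed to between 7844 and 10736 CPM. The histone gene h1m was the only oocyte marker at 0 throughout.

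Library totals ran from 19.9 to 24.6 M counts in 3 of the groups and from 26.4 to 30.1 M in paternal-cross HET. Pairs of libraries of 1 group had a Pearson's r of 0.971 to 0.990 across genes, which are not independent replicates. The mutated microRNA gene was not analysed here, so the genotypes are those of the labels. In maternal-cross KO, 2 libraries stood out. The 9 genes of exocrine pancreas enzymes summed to 116, 220, 1998 and 9626 CPM in its replicates 1 to 4, whereas no library of the other groups exceeded 617 CPM. In replicate 4 these enzymes took 0.963% of all counts.

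The members were spread unevenly over the groups. Paternal-cross HET was the group that stood apart for 46 of the 80, low for 44 of them and high for 2. Paternal-cross KO was high for 17 and low for 0. Maternal-cross KO was high for 10 and low for 2, and maternal-cross HET was low for 4 and high for 1. The same unevenness runs through all kept genes without overlap: 2.59% of kept genes were lowest in all 4 paternal-cross HET libraries, 1.2% were highest in paternal-cross KO, 0.51% were highest in maternal-cross KO and 0.397% were lowest in maternal-cross HET. The remaining classes were small, at 0.346% for paternal-cross HET high, 0.164% for paternal-cross KO low, 0.108% for maternal-cross KO low and 0.0453% for maternal-cross HET high. The split of the genes without overlap into low and high depended on the scaling in every group. Of the paternal-cross HET genes without overlap, 457 were low and 61 high with plain library totals, 392 were low and 360 high with TMM library sizes, and 445 were low and 255 high with upper-quartile sizes. For paternal-cross KO, 212 were high and 29 low with plain totals, 123 and 105 with TMM, and 159 and 84 with upper-quartile sizes. For maternal-cross KO, 90 were high and 19 low, then 78 and 48, and 70 and 64. For maternal-cross HET, 8 were high and 70 low, then 18 and 26, and 19 and 26. Among the 80 largest gaps, the paternal-cross HET split changed little. It was 44 low and 2 high with plain totals, 47 and 2 with TMM, and 46 and 2 with upper-quartile sizes. The genes were partly others: 28 of the 44 low members were chosen again with TMM and 32 with upper-quartile sizes. Paternal-cross KO low held 0 of the 80 with plain totals and 2 with either other scaling.

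**Figure D1:**
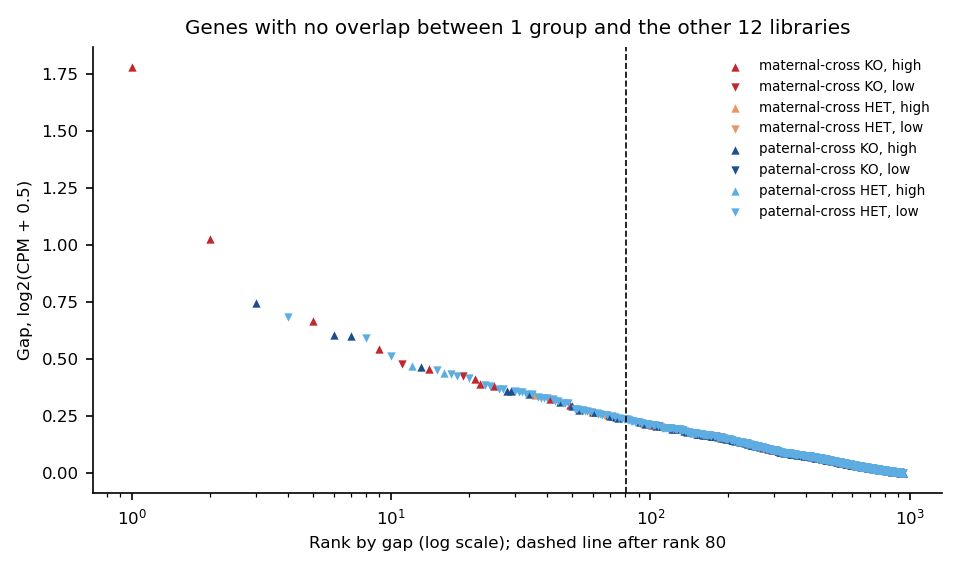
The gap in log2(CPM + 0.5) of the 946 genes without overlap, against their rank on a log axis, coloured by the group that stands apart and pointing up for high and down for low. The 80 members lie left of the dashed line, 2 of them with a gap above 1 and 10 above 0.5, and the curve runs on smoothly past the line.

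Gaps among the members were small next to the differences in mean. The largest gap was 1.78 and the median 0.33 on the log2 scale, so for most members the nearest libraries of different groups were close. The ratio of the higher to the lower mean had a median of 2.43 among the 44 genes low in paternal-cross HET, 2.59 among the 17 genes high in paternal-cross KO and 3.19 among the 10 genes high in maternal-cross KO. Members were mostly of low abundance, with 60 of the 80 under a mean of 10 CPM and a median mean of 5.19 CPM, against 13.3 CPM for all kept genes. Counting error matters at that level: the 95% exact Poisson intervals of the nearest libraries on either side of the gap were apart for 18 members and overlapped for 62. These intervals cover counting error only.

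**Figure D2:**
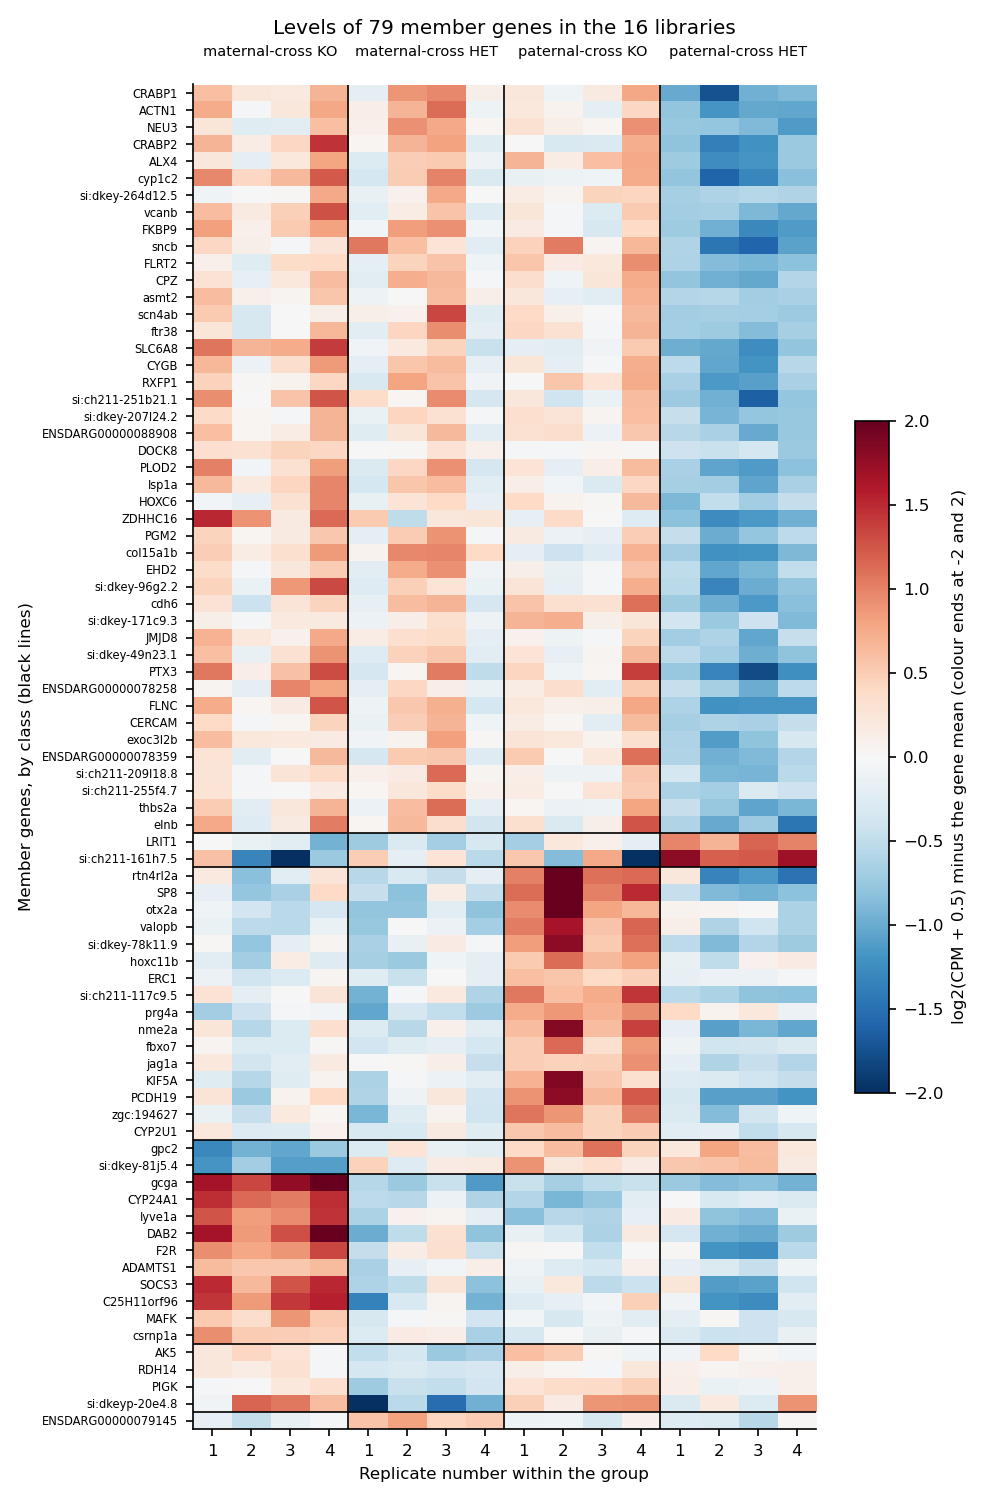
Each row is 1 of 79 members and each column a library, with the colour giving log2(CPM + 0.5) minus the gene's mean over 16 libraries and black lines dividing the 7 classes. The block of 44 genes at the top is blue in all 4 paternal-cross HET libraries, the paternal-cross KO block of 16 genes is red with its deepest colours in replicate 2, and the maternal-cross KO block of 10 genes is red in that group's libraries.

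Of the 44 genes that stood low in paternal-cross HET, 7 encode extracellular matrix proteins or enzymes that modify proteins of the matrix. A further 4 belong to the actin cytoskeleton or membrane, and 2 carry retinoic acid. How many of all kept genes have such roles was not counted, so nothing is read from these numbers. The leading gene was CRABP1, which encodes a cytoplasmic carrier of retinoic acid. It was at 2.05, 1.03, 2.12 and 2.27 CPM in paternal-cross HET replicates 1 to 4, against 7.27, 5.44, 5.33 and 7.71 CPM in maternal-cross KO, 3.95, 8.86, 9.41 and 5.03 CPM in maternal-cross HET and 5.48, 4.30, 5.30 and 8.24 CPM in paternal-cross KO. The 4 low libraries lay well under the lowest of the others, and their mean of 1.87 ± 0.565 CPM (SD, n = 4) was 3.40 times below the mean of the other 12. Its relative CRABP2, a carrier that hands retinoic acid to its nuclear receptors in mammals, was at 3.53, 2.23, 2.56 and 3.69 CPM in paternal-cross HET. The other libraries held CRABP2 between 5.23 and 18.6 (median 8.10) CPM, a ratio of means of 3.02. Both symbols are shared with 1 further gene identifier in the table, so the symbol does not say which paralogue was counted. The further identifiers are not members, and their levels are not given here.

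Second in this class came ACTN1, the actin-bundling protein alpha-actinin. Its levels were 9.86, 7.42, 8.36 and 8.30 CPM in paternal-cross HET, 29.5, 17.2, 20.6 and 30.1 CPM in maternal-cross KO, 19.2, 28.3, 38.4 and 16.3 CPM in maternal-cross HET and 20.4, 18.3, 15.1 and 23.5 CPM in paternal-cross KO. The paternal-cross HET values were tight, at 8.49 ± 1.01 CPM (SD, n = 4), while the maternal-cross HET values were spread more widely, at 25.5 ± 9.997 CPM (SD, n = 4). With FLNC, an actin cross-linking filamin, EHD2, a membrane-remodelling ATPase of caveolae, and lsp1a, an actin-binding protein of leukocytes in mammals, it made 4 actin or membrane proteins in the class. Their ratios of means lay between 2.03 and 2.96. These 3, and every gene of the class named below other than the 8 with the largest gaps, were named after their values were seen.

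Extracellular matrix proteins and the enzymes that modify them supplied 7 of the 44. They were vcanb, encoding the proteoglycan versican, col15a1b, encoding a basement-membrane collagen, thbs2a, encoding a thrombospondin, elnb, encoding elastin, the lysyl hydroxylase PLOD2, the peptidyl-prolyl isomerase FKBP9 and the secreted carboxypeptidase CPZ. Their ratios of means lay between 2.32 and 3.04. Of these, vcanb had the largest gap, with 5.27, 5.39, 4.51 and 4.10 CPM in paternal-cross HET and between 7.196 and 22.0 (median 10.3) CPM in the other 12 libraries. The paternal-cross HET mean of vcanb was 4.82 ± 0.617 CPM and the maternal-cross KO mean, the highest of the 4, was 14.6 ± 5.16 CPM (SD, n = 4). Col15a1b reached 2.50, 1.60, 1.63 and 2.1 CPM in paternal-cross HET and between 3.15 and 9.04 (median 5.74) CPM elsewhere. These matrix genes differed among themselves in which library came next: paternal-cross KO replicate 3 was nearest for vcanb at 7.196 CPM, and paternal-cross KO replicate 2 was nearest for col15a1b at 3.15 CPM.

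Other leading members of the class have varied roles. NEU3, which in mammals encodes a sialidase that trims gangliosides at the cell surface, was at 0.986, 0.965, 0.863 and 0.643 CPM in paternal-cross HET and between 1.62 and 4.26 (median 2.34) CPM in the other libraries. ALX4, a homeobox transcription factor of mesenchyme in the mouse face and limb, was at 2.73, 1.73, 1.83 and 2.64 CPM and, in the other libraries, between 3.87 and 8.63 (median 6.28) CPM. Here the paternal-cross KO mean was the highest, at 7.29 ± 1.37 CPM, and the paternal-cross HET mean was 2.23 ± 0.527 CPM (SD, n = 4). HOXC6, the other homeobox gene of the class, had a ratio of means of 2.51. The cytochrome P450 gene cyp1c2, of a family that oxidizes foreign compounds, was at 5.01, 2.63, 3.32 and 4.81 CPM in paternal-cross HET and between 6.90 and 21.6 (median 12.6) CPM elsewhere. For cyp1c2 the group means were 16.5 ± 4.15 CPM in maternal-cross KO, 11.4 ± 5.46 CPM in maternal-cross HET, 10.1 ± 3.57 CPM in paternal-cross KO and, in paternal-cross HET, 3.94 ± 1.15 CPM (SD and n = 4 throughout). The gene si:dkey-264d12.5, to which no role is given here, was at 0.531, 0.566, 0.597 and 0.576 CPM in paternal-cross HET, the tightest set of values in that group among the 8 leading members, and between 0.967 and 2.26 (median 1.22) CPM in the other 12.

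Among the remaining genes of the class were 3 surface proteins: the cadherin cdh6, the adhesion protein FLRT2 and RXFP1, the receptor of relaxin. Their ratios of means lay between 2.42 and 2.67. The largest ratios of the class belonged to SLC6A8, the creatine transporter, at 4.37, and to PTX3, a secreted pentraxin of innate immunity, at 4.28. SLC6A8 was at 0.531, 0.499, 0.365 and 0.677 CPM in paternal-cross HET and at 3.77, 2.76, 2.92 and 4.85 CPM in maternal-cross KO, with maternal-cross HET and paternal-cross KO between them at 1.63 ± 0.539 and 1.59 ± 0.553 CPM (SD, n = 4 each). The counts behind SLC6A8 were low, at 11 to 20 per library in paternal-cross HET and 23 to 110 elsewhere. Its Poisson intervals at the gap overlapped. DOCK8, a guanine nucleotide exchange factor known from leukocytes, had the smallest ratio, 1.58, on a higher level, at 38.5, 37.5, 40.1 and 30.5 CPM in paternal-cross HET and between 50.1 and 70.22 (median 54.0) CPM in the other libraries. Abundance in the class ranged from 1.21 CPM for si:dkey-264d12.5 to 53.1 CPM for CYGB, the globin cytoglobin, both as means over 16 libraries.

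**Figure D3:**
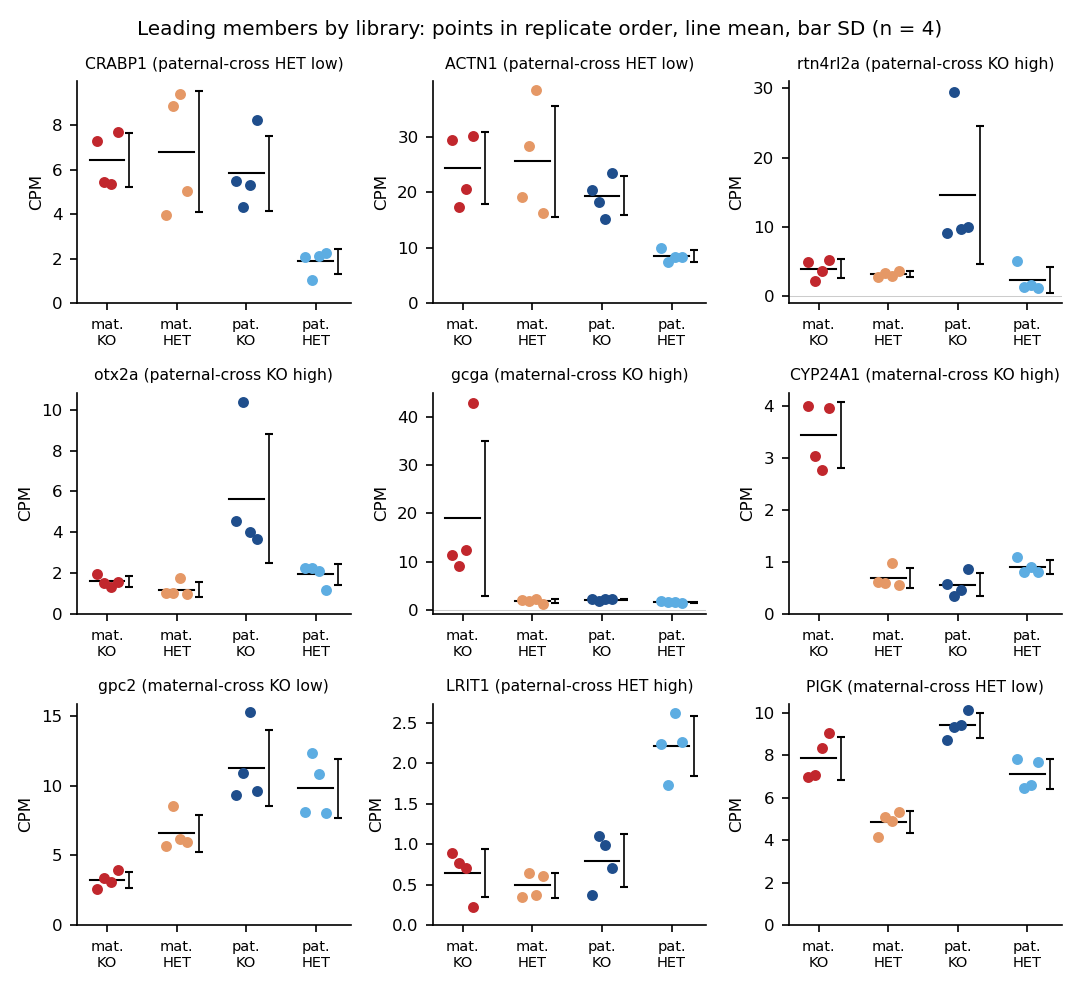
CPM of 9 leading members in each library, with points in replicate order, a line at the group mean and a bar for the SD (n = 4). In all 9 the group that stands apart does not overlap the rest, as the rule requires. In rtn4rl2a and otx2a the paternal-cross KO mean is raised by replicate 2, at 29.5 and 10.4 CPM, and in gcga the maternal-cross KO mean is raised by replicate 4, at 43.0 CPM.

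The genes low in paternal-cross HET also shared an order of libraries inside the groups, which the rule did not set. Maternal-cross KO replicate 4 was the highest library of its group for 32 of the 44, against 34.4% of all kept genes. Maternal-cross HET replicate 3 was highest for 35 of the 44, against 43.8% of kept genes, and paternal-cross KO replicate 4 for 39 of the 44, against 46.8%. Within paternal-cross HET, replicate 1 was highest for 25 of the 44, against 37.5%. In each group these are the libraries with the most RNA of the stroma list, 6 genes that mark collagen-producing and smooth muscle cells, none of which is a member. That list summed to 847, 507, 826 and 1176 CPM in maternal-cross KO, 541, 794, 865 and 462 CPM in maternal-cross HET, 758, 652, 652 and 1100 CPM in paternal-cross KO, and 585, 369, 351 and 451 CPM in paternal-cross HET. The paternal-cross HET sums overlap those of both maternal-cross groups. The leukocyte list was highest in the same library of each group, at 619 CPM in maternal-cross KO and 719 CPM in maternal-cross HET. It reached 950 CPM in paternal-cross KO and 394 CPM in paternal-cross HET. Correlations were computed with the stroma list only, so they do not show whether the order is particular to stroma. Such an order was not limited to the 44 genes. With each library taken as its deviation from its group's mean, these genes had a median Pearson's r of 0.85 with the stroma sum. The median was 0.69 for the 10 genes high in maternal-cross KO and 0.48 for the 17 high in paternal-cross KO, against 0.34 over all kept genes.

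**Figure D4:**
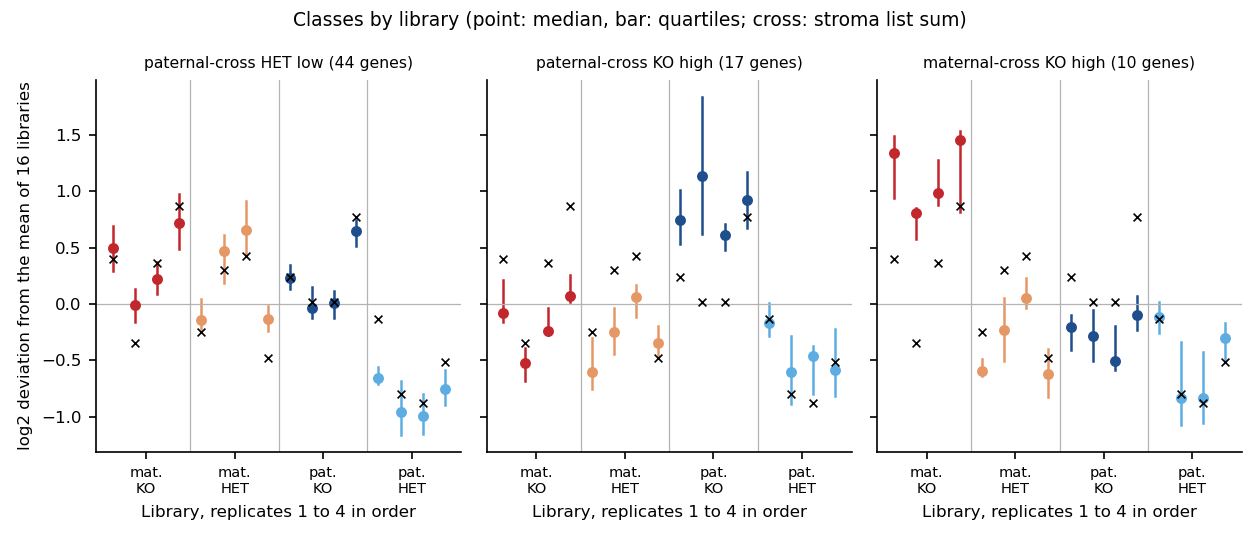
For the 3 large classes, the median (point) and quartiles (bar) over members of the log2 deviation of each library from the mean of 16, with the stroma list's summed CPM on the same scale as a cross. In the class low in paternal-cross HET the highest point of each group lies at the library with the highest cross, and in paternal-cross HET replicate 1 the point lies below the cross, at -0.66 against -0.14.

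By the edgeR quasi-likelihood test, 5 of the 6 stroma genes were lower in paternal-cross HET than in the mean of the other 3 groups (adjusted p-value under 0.05) and 0 were higher, with a median log2 fold change of -0.68, against -0.02 over all genes tested. The same comparison called 16.1% of all genes lower and 11.7% higher. Of 17 leukocyte markers, 8 were lower and 1 was higher in that group, with a median log2 fold change of -0.64. Of 7 markers of Sertoli and granulosa cells, the somatic partners of the germ cells, 4 were lower and 0 higher. Their sums were 141 to 252 CPM in paternal-cross HET, 180 to 496 CPM in maternal-cross HET, 213 to 432 CPM in maternal-cross KO and 338 to 664 CPM in paternal-cross KO. For this list and for leukocytes, paternal-cross HET sums thus overlapped those of both maternal-cross groups but not those of paternal-cross KO. Leukocyte sums were 227 to 394 CPM in paternal-cross HET. Oocyte markers went the other way, with 7 of 10 higher in paternal-cross HET and 0 lower (median 0.33). Their sums of 9606 to 10736 CPM overlapped those of maternal-cross HET, 9136 to 9947 CPM. Of 11 germ cell markers, 1 was higher and 0 lower (median 0.02). Steroidogenic cell markers were mixed, with 2 of 10 higher and 4 lower (median -0.20). The 9 exocrine pancreas genes were all lower (median -3.63), at sums of 16.2 to 65.1 CPM against 29.1 to 9626 CPM in the other groups. The mean of the other groups includes maternal-cross KO replicates 3 and 4, at 1998 and 9626 CPM. Sums in paternal-cross KO, 29.1 to 215 CPM, overlapped those of paternal-cross HET. None of the members is on these lists. What part the mix of cell types has in the 44 genes was not tested.

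**Figure D5:**
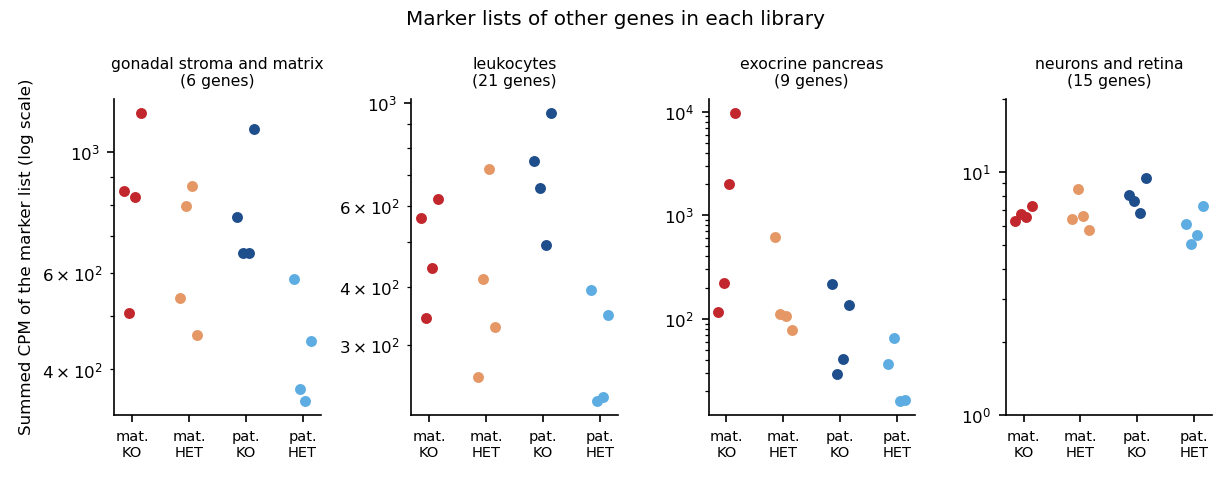
Summed CPM of 4 marker lists in each library on log axes, none of whose genes is a member; points are in replicate order. The lowest stroma and leukocyte sums, 351 and 227 CPM, are those of paternal-cross HET libraries, the exocrine pancreas sum reaches 1998 and 9626 CPM in maternal-cross KO replicates 3 and 4, and the neuron and retina list stays between 5.06 and 9.44 CPM throughout.

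Of the 17 genes that stood high in paternal-cross KO, the one with the largest gap was rtn4rl2a, a relative of the Nogo receptor of neurons, at 9.15, 29.5, 9.75 and 9.98 CPM in paternal-cross KO. It was at 4.98, 2.19, 3.62 and 5.24 CPM in maternal-cross KO, 2.77, 3.36, 2.96 and 3.68 CPM in maternal-cross HET and 5.08, 1.397, 1.66 and 1.22 CPM in paternal-cross HET. Replicate 2 of paternal-cross KO stood far above the other libraries of its group, which gives the mean of 14.6 ± 9.95 CPM (SD, n = 4) its wide spread, and the remaining 3 also lay above all 12 others.

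SP8, a zinc-finger transcription factor of the limb bud and forebrain, had the largest ratio of the class at 6.73. It was at 2.55, 6.42, 2.34 and 3.49 CPM in paternal-cross KO and between 0.232 and 1.37 (median 0.461) CPM elsewhere, on counts of 57 to 145 and of 7 to 31 per library. The homeobox gene otx2a, of a family that patterns the head and eye, was at 4.53, 10.4, 4.03 and 3.66 CPM in paternal-cross KO, 1.97, 1.502, 1.31 and 1.59 CPM in maternal-cross KO, 1.01, 1.02, 1.77 and 0.997 CPM in maternal-cross HET and 2.24, 2.23, 2.09 and 1.19 CPM in paternal-cross HET. Replicate 2 was again the highest library. The posterior homeobox gene hoxc11b was at 9.85, 15.1, 10.8 and 12.1 CPM and between 3.83 and 7.55 (median 5.77) CPM in the others, a ratio of 2.11.

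Proteins of sensory or synaptic use were also among the leading members. The non-visual opsin valopb was at 3.91, 6.34, 2.76 and 4.41 CPM in paternal-cross KO and between 0.791 and 1.86 (median 1.09) CPM in the other 12 libraries. ERC1, a scaffold of the presynaptic active zone, was the most even leading member, at 3.01, 2.88, 2.55 and 2.70 CPM against 1.19 to 1.89 (median 1.58) CPM. Its ratio was 1.79, the lowest of the class. The motor protein KIF5A and the protocadherin PCDH19, both known from neurons and named after their values were seen, had ratios of 2.92 and 3.11. The leading members si:dkey-78k11.9 and si:ch211-117c9.5 are given no role here. The gene si:dkey-78k11.9 was at 2.27, 4.83, 1.73 and 2.83 CPM in paternal-cross KO and between 0.333 and 1.23 (median 0.712) CPM elsewhere, and si:ch211-117c9.5 was at 13.4, 9.70, 10.7 and 17.5 CPM and between 2.99 and 7.72 (median 4.75) CPM. For si:ch211-117c9.5 replicate 4 was the highest library, and for ERC1 replicate 1, whereas replicate 2 was the highest for the other 6 leading members.

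A single library held the highest levels of most of this class. Paternal-cross KO replicate 2 was the highest of its group for 11 of the 17 members, against 21.3% of all kept genes, and replicate 3 was the lowest for 10 of 17, against 44.6%. Markers of neurons and retina were near the limit of detection in every library: 12 of 15 never reached 1 CPM, 1 was at 0 throughout, and the sum was 8.08, 7.58, 6.79 and 9.44 CPM in paternal-cross KO replicates 1 to 4, against 5.06 to 8.48 CPM elsewhere. That list was added after these values were seen, and 1 of its 5 genes tested was higher in paternal-cross KO. In paternal-cross KO other lists did move: 7 of 9 interferon response genes were higher than in the mean of the other groups and 0 lower (edgeR adjusted p-value under 0.05, with 3.77% of all genes called higher), and 5 of 17 leukocyte markers were higher. The interferon list summed to 223, 336, 147 and 289 CPM in paternal-cross KO replicates 1 to 4. It summed to 132 to 221 CPM in maternal-cross KO, 95.6 to 235 CPM in maternal-cross HET and 72.3 to 128 CPM in paternal-cross HET. Leukocyte sums of 492 to 950 CPM in paternal-cross KO likewise overlapped those of both maternal-cross groups, which reached 619 and 719 CPM. The part of these lists in the 17 members was not tested.

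Other functions are those of jag1a, a ligand of the Notch receptor (ratio 1.88), prg4a, the joint lubricant lubricin (2.55), nme2a, a nucleoside diphosphate kinase (3.02), fbxo7, an F-box protein of ubiquitin ligases (1.97), and CYP2U1, a fatty acid hydroxylase (1.83). The gene zgc:194627 had a ratio of 2.59. These 6 were named after their values were seen. The most abundant was fbxo7, at 26.0, 40.6, 22.8 and 33.2 CPM in paternal-cross KO against 13.6 to 18.9 (median 15.0) CPM in the other libraries. In prg4a the other groups were not level: paternal-cross HET was at 1.82, 1.33, 1.53 and 1.12 CPM and maternal-cross HET at 0.352, 0.894, 0.739 and 0.563 CPM.

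Among the 10 genes high in maternal-cross KO were the 2 with the largest gaps of all members. First by gap was gcga, the proglucagon gene, whose product is cut into glucagon and glucagon-like peptides. It was at 11.4, 9.01, 12.3 and 43.0 CPM in maternal-cross KO, 2.02, 1.75, 2.26 and 1.21 CPM in maternal-cross HET, 2.27, 1.86, 2.14 and 2.25 CPM in paternal-cross KO and 1.74, 1.56, 1.63 and 1.46 CPM in paternal-cross HET. The groups did not overlap, and replicate 4 stood far above the remaining 3 libraries of maternal-cross KO. On means the ratio was 10.3, from counts of 222 to 976 against 28 to 55 per library.

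Glucagon is made in the endocrine islets of the pancreas. Exocrine enzymes were called higher in maternal-cross KO for 9 of 9 genes (edgeR adjusted p-value under 0.05; 1.9% of all genes were called higher), with a median log2 fold change of 4.89. In replicates 1 and 2 the enzyme sums of 116 and 220 CPM lay within the range of the other groups, 16.2 to 617 CPM. Within maternal-cross KO, replicate 4 was highest and replicate 3 second both for enzymes (9626 and 1998 CPM) and for gcga (43.0 and 12.3 CPM). Replicates 1 and 2 came in opposite order, with gcga at 11.4 and 9.01 CPM. Between groups, maternal-cross KO replicate 1 held 116 CPM of enzymes and 11.4 CPM of gcga, whereas maternal-cross HET replicate 1 held 617 CPM of enzymes and 2.02 CPM of gcga. Markers of the hormone-producing pancreas, a list added after these values were seen, summed to between 17.1 and 25.9 CPM over all 16 libraries. Of its 9 genes, 5 never reached 1 CPM in any library, so the list says little about islet RNA. The 5 genes of it that were tested had a median log2 fold change of -0.30 in maternal-cross KO. Insulin (ins) was at 1.39 ± 0.447 CPM there and between 0.714 and 1.2 CPM on average in the other groups. Liver markers were called higher for 6 of 9 genes. Their sums were 30.1, 16.1, 50.5 and 252 CPM in maternal-cross KO replicates 1 to 4 against 11.9 to 45.5 CPM in the other groups. Replicate 3 thus lay slightly above that range and replicate 4 far above it. The part of such tissue in gcga was not tested.

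CYP24A1, the enzyme that inactivates vitamin D, was at 3.99, 3.04, 2.77 and 3.96 CPM in maternal-cross KO. In the other groups it was at 0.615, 0.596, 0.986 and 0.563 CPM in maternal-cross HET, 0.577, 0.354, 0.452 and 0.873 CPM in paternal-cross KO and 1.1, 0.799, 0.896 and 0.813 CPM in paternal-cross HET. The 4 maternal-cross KO libraries were even, at 3.44 ± 0.630 CPM (SD, n = 4), and the ratio of means was 4.79. Counts were 55 to 90 per library in maternal-cross KO and 8 to 29 elsewhere. CYP24A1 and gcga were the 2 members with a gap above 1.

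An uptake receptor and an adaptor followed. The hyaluronan receptor lyve1a, known from lymphatic endothelium, was at 6.68, 4.87, 5.33 and 7.71 CPM in maternal-cross KO and between 1.16 and 2.88 (median 1.84) CPM in the other libraries. DAB2, a clathrin adaptor that brings receptors into coated pits, was the most abundant member of the class at 117, 66.3, 89.6 and 164 CPM, with between 17.8 and 45.3 (median 24.5) CPM elsewhere. For DAB2 the nearest other library was maternal-cross HET replicate 3, and the spread inside maternal-cross KO was wide, at 109 ± 42.0 CPM (SD, n = 4). F2R, the thrombin receptor, was at 5.52, 4.87, 5.28 and 7.40 CPM and between 0.830 and 3.41 (median 2.22) CPM in the others. That symbol is shared by 7 identifiers in the table, so it does not say which paralogue was counted. The secreted protease ADAMTS1, which cleaves versican in mammals, was the most even, at 7.13, 6.66, 6.64 and 7.14 CPM against 2.64 to 4.85 (median 3.87) CPM.

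SOCS3, the feedback inhibitor of cytokine signalling, was at 41.3, 22.8, 35.0 and 41.6 CPM in maternal-cross KO and between 6.35 and 17.3 (median 10.2) CPM elsewhere, a ratio of 3.14. The immediate-early nuclear protein csrnp1a was at 10.5, 7.67, 7.60 and 7.44 CPM against 3.16 to 5.96 (median 4.47) CPM. MAFK, a small Maf transcription factor, was at 1.66, 1.42, 2.26 and 1.67 CPM against 0.631 to 1.03 (median 0.812) CPM. The last 2 were named after their values were seen. C25H11orf96, to which no role is given here, behaved like SOCS3 in its levels, at 32.2, 21.3, 31.8 and 34.8 CPM in maternal-cross KO and between 4.26 and 16.3 (median 9.77) CPM in the other 12. In SOCS3, C25H11orf96 and 5 more of the 10, maternal-cross KO replicate 2 was the lowest of its group, and that library had the lowest level for 45.8% of all kept genes. Of the 12 genes on the heat shock and stress list 1 was higher in maternal-cross KO and 0 were lower. That gene was FOSB, at 2.39 ± 1.26 CPM in maternal-cross KO and averaged between 0.398 and 0.512 CPM in the other groups (n = 4 each).

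Maternal-cross KO was low for 2 members. The cell-surface proteoglycan gpc2, a glypican, was at 2.56, 3.37, 3.12 and 3.92 CPM in that group, 5.67, 8.52, 6.20 and 5.94 CPM in maternal-cross HET, 9.31, 10.9, 15.3 and 9.65 CPM in paternal-cross KO and 8.08, 12.3, 10.9 and 8.06 CPM in paternal-cross HET. Maternal-cross HET lay between maternal-cross KO and both paternal-cross groups, with means of 3.24 ± 0.566 and 6.58 ± 1.31 CPM in the maternal cross against 11.3 ± 2.74 and 9.83 ± 2.11 CPM in the paternal cross (SD, n = 4 each). The gene si:dkey-81j5.4 was at 2.02, 3.04, 2.16 and 2.16 CPM in maternal-cross KO and between 4.26 and 10.1 (median 6.43) CPM in the other libraries, a ratio of 2.93.

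Maternal-cross HET stood apart for 5 members, all with modest ratios except 1. PIGK, the catalytic subunit of the enzyme that attaches glycolipid anchors to proteins, was at 4.13, 5.11, 4.93 and 5.33 CPM in maternal-cross HET, 7.00, 7.06, 8.35 and 9.07 CPM in maternal-cross KO, 8.73, 9.35, 9.46 and 10.1 CPM in paternal-cross KO and 7.81, 6.45, 6.61 and 7.69 CPM in paternal-cross HET. Its neighbour AK5, an adenylate kinase, was at 1.85, 2.09, 1.48 and 1.60 CPM in maternal-cross HET and between 2.62 and 4.49 (median 3.11) CPM in the others. The retinol dehydrogenase RDH14 was at 9.40, 9.88, 9.24 and 9.49 CPM, a very even set, against 11.9 to 15.1 (median 13.1) CPM, and its ratio of 1.39 was the smallest of all 80. By contrast si:dkeyp-20e4.8 was uneven, at 7.03, 33.5, 16.7 and 24.8 CPM in maternal-cross HET and between 39.7 and 110.2 (median 71.3) CPM elsewhere. The gene high in this group, ENSDARG00000079145, has no symbol in the table of names and was at 3.65, 4.34, 3.25 and 3.47 CPM against 1.39 to 2.45 (median 1.99) CPM.

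Paternal-cross HET was high for 2 members. LRIT1, a leucine-rich protein of photoreceptors in mammals, was at 2.24, 1.73, 2.62 and 2.27 CPM in paternal-cross HET, 0.897, 0.771, 0.704 and 0.220 CPM in maternal-cross KO, 0.352, 0.639, 0.370 and 0.607 CPM in maternal-cross HET and 0.371, 1.11, 0.987 and 0.707 CPM in paternal-cross KO. The counts behind it were 52 to 79 per library in paternal-cross HET and 5 to 25 elsewhere. The gene si:ch211-161h7.5 was at 218, 143, 146 and 204 CPM in paternal-cross HET. In the other groups it was at 93.7, 24.6, 11.6 and 37.0 CPM in maternal-cross KO, 88.2, 54.6, 75.2 and 42.6 CPM in maternal-cross HET and 90.6, 34.1, 105 and 10.6 CPM in paternal-cross KO.

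The model fitted to all 16 libraries called nearly all members. With edgeR's quasi-likelihood test and an adjusted p-value under 0.05 for a group against the mean of the other 3, 46 of 46 paternal-cross HET members were called (27.8% of all 21683 genes tested), 17 of 17 paternal-cross KO members (5.21%), 12 of 12 maternal-cross KO members (2.46%) and 4 of 5 maternal-cross HET members (0.337%), AK5 being the exception. By direction, the maternal-cross KO contrast called 1.9% of genes higher and 0.563% lower, the maternal-cross HET contrast 0.226% and 0.111%, and the paternal-cross KO contrast 3.77% and 1.44%. The rule used this contrast, so nothing is read from those counts. Without maternal-cross KO replicates 3 and 4, the libraries rich in pancreas enzymes, 8 of the 12 maternal-cross KO members were called, as were 42 of all 22268 genes tested. The rule keeps the other 12 libraries on 1 side of the gap, which limits their spread, so calls between their groups are descriptions too. The share of all genes is given for each pair, not for the 3 pairs together. Between the 3 groups in which a member did not stand apart, 6 members differed in 1 or more pairs. None of these calls came from maternal-cross KO against HET (0.198% of genes called) or from maternal-cross HET against paternal-cross KO (1.18%). SLC6A8 and DOCK8 were higher in maternal-cross KO than in paternal-cross KO, by 1.17 and 0.39 on the log2 scale, where 1.59% of all genes were called. CYP24A1 was lower in paternal-cross KO than in paternal-cross HET, with a log2 fold change of -0.82 (23.2% of genes called). PCDH19 and si:ch211-117c9.5 were higher in maternal-cross KO than in paternal-cross HET, by 0.96 and 0.73, whereas prg4a was lower there, at -0.76 (20.2% of genes called). For prg4a the difference between maternal-cross HET and paternal-cross HET was also called, at -1.24 (3.92% of genes called).

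Some members are near neighbours on their chromosome. In the RefSeq annotation of GRCz12tu, to which 65 members were matched by name, 7 pairs of members had at most 50 annotated genes between them. In 6 of these both stood apart in the same group and direction. How many such pairs randomly drawn genes would give was not computed. As 44 of the 80 members are in a single class, pairs of the same class are common, and nothing is read from these counts. AK5 and PIGK, both low in maternal-cross HET, had 1 gene between them, which was not among the kept genes. CYP2U1, otx2a and jag1a, all high in paternal-cross KO, lay in a row with 12 genes in each interval. Of the kept genes in those intervals, 9 and 4, none stood apart in the same way. Only 1.2% of all kept genes did so, and a gene can have its highest mean in a group without standing apart. Nothing is therefore read from that count. ACTN1 and thbs2a, both low in paternal-cross HET, had 22 genes between them, of which 16 were kept and 1 stood apart likewise. RXFP1 and sncb, of the same class, had 43 between them, of which 17 were kept and 0 stood apart. Of all kept genes, 2.59% stood apart in that class, so these counts too are descriptions. The pair of different classes was csrnp1a and col15a1b. Of all matched members, 2 lay on the chromosome of mir214a, a miR-214 gene of that annotation: FLRT2, with 65 genes between, and RDH14, with 157. Both symbols are shared with another identifier and the match was by name, so these places may be those of paralogues. Sequence differences between the families were not analysed here.

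Leaving aside the 2 lists added after values were seen, 21 marker and pathway lists were used and no member is on them. They hold 314 symbols, of which 228 were found in the table. Of the 80 identifiers, 76 have a symbol and 4 have none, and 18 share their symbol with another identifier. These 18 include CRABP1, CRABP2, NEU3, ALX4, HOXC6, FLRT2, SP8, ERC1, DAB2, F2R, SOCS3, LRIT1 and RDH14 among the genes named above. For them the symbol alone does not say which paralogue was counted.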

How the data were processed

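Gonad messenger RNA of 16 zebrafish samples was prepared with a stranded kit and sequenced as single reads on 1 flow cell, per the labels. The authors deposited 1 table of read counts per gene, made with STAR 2.4.1d and featureCounts 1.4.6 on danRer10, per the submitters' processing notes, which also name DESeq2. The annotation release and the strand setting are not given in the sources used here. The values are raw counts, and pooled gonads of a group are its 4 biological replicates.

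CPM were computed from library totals, and the members were found from log2(CPM + 0.5) among genes with a mean of 1 to 500 CPM. The members and the gene lists were chosen with earlier results of these data known. Genes named in full are the 8 with the largest gap in each class, and any other is said to be chosen after its values were seen. The values of 1 member are not reported here.

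All 16 libraries entered 1 edgeR 4.0.16 quasi-likelihood fit (TMM sizes, genes kept by filterByExpr with a minimum count of 10, 1 coefficient per group). The fit was also run on simulated counts, which varied independently between genes. Those do not cover differences in tissue mix shared by many genes. Each group was compared with the mean of the other 3, and groups in pairs, at a Benjamini-Hochberg adjusted p-value of 0.05. Symbols came from a table of names that matched 26121 of 31953 identifiers, and capital letters follow it. Replicate pairs of a group differed by more than sampling noise (chi-square per degree of freedom 6.46 to 52.6), so none was taken as a repeat. Same-numbered replicates of different groups did not deviate together (mean correlation between -0.25 and 0.09), and nothing in the labels pairs them. Alternatives were other pseudocounts, scalings, abundance bands, DESeq2 1.42.0, a replicate block, thinned counts and leaving out libraries.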

Additional observations from a re-analysis of the deposited data

Results flagged for a closer look

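In 9 of the 132 sets of 4 libraries examined (33 named genes in 4 groups), 1 library lay far from the other 3 of its group by Dixon's criterion at the 95% level. Chance flags about 1 in 20 such sets, or 6.6 of 132, so the number of flags is close to that.

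In the groups that stood apart, rtn4rl2a was high in paternal-cross KO replicate 2 at 29.5 CPM and CRABP1 was low in paternal-cross HET replicate 2 at 1.03 CPM. Both libraries lay on the far side of the gap, so that the nearest libraries were others. The gene si:dkey-81j5.4 was high in maternal-cross KO replicate 2 at 3.04 CPM, and that library set its gap.

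The other flags lay in groups that did not stand apart. CYP24A1 was high in maternal-cross HET replicate 3 at 0.986 CPM. The homeobox gene otx2a was high in maternal-cross HET replicate 3 at 1.77 CPM and low in paternal-cross HET replicate 4 at 1.19 CPM. F2R was low in paternal-cross KO replicate 3 at 1.73 CPM. The gene cyp1c2 was high in paternal-cross KO replicate 4 at 15.4 CPM, and si:dkey-264d12.5 was high in maternal-cross KO replicate 4 at 2.25 CPM.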

How the results depend on the processing

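Of the 80 members, 72 and 65 were chosen again with pseudocounts of 0.1 and 2, 55 with TMM and 60 with upper-quartile scaling, 74 with a mean of at least 0.1 CPM and no upper limit, and 59 after thinning to 1 depth. A band of 5 to 500 CPM kept 42, and leaving out maternal-cross KO replicates 3 and 4 together kept 52. That band changes no gap and only drops members with a mean under 5 CPM, so its number was fixed by abundance. Leaving out 1 library kept between 29 and 75; the lowest were 29 without paternal-cross HET replicate 1, 46 without maternal-cross KO replicate 2 and 46 without paternal-cross KO replicate 3, followed by 52 without paternal-cross HET replicate 4 and 53 without maternal-cross HET replicate 4.

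The counts of genes called against the other groups were 533 for maternal-cross KO, 73 for maternal-cross HET, 1130 for paternal-cross KO and 6018 for paternal-cross HET. DESeq2 called 1036, 263 and 2179 in the first 3. With a replicate block, 255, 41 and 423 were called in these, and 2 rather than 6 members differed between other groups. Without maternal-cross KO replicates 3 and 4, 42 genes were called for maternal-cross KO, 39 for maternal-cross HET and 3648 for paternal-cross HET, and 2 members differed between other groups. Upper-quartile scaling made 28.1% of the paternal-cross HET calls higher, against 42.1%. DESeq2 made 64.5% of the maternal-cross KO calls and 57.5% of the paternal-cross KO calls higher, against 77.1% and 72.3%. The cause was not tested.

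Leaving out 1 library gave 125 to 1045 calls for maternal-cross KO, 23 to 134 for maternal-cross HET, 146 to 2836 for paternal-cross KO and 1264 to 6981 for paternal-cross HET. The members called ranged from 12 to 12, 2 to 5, 16 to 17 and 46 to 46 in the same order, and 1 to 7 members differed between other groups. Calls for maternal-cross KO fell to 125 without its replicate 4, 214 without its replicate 1 and 309 without its replicate 3, and to 345 and 351 without paternal-cross KO replicates 2 and 3. Without maternal-cross HET replicate 3 they were 1045, and those for paternal-cross KO 2836. Paternal-cross KO calls were 360, 151 and 146 without its replicates 1, 2 and 4, 737 and 749 without maternal-cross KO replicates 2 and 3, and 662 without paternal-cross HET replicate 3. Paternal-cross HET calls were 3033, 1264 and 3212 without its replicates 2, 3 and 4. Maternal-cross HET calls were 42, 23, 43 and 134 without its replicates 1 to 4 and 46 without paternal-cross KO replicate 1, and 2 of its members were called without its replicate 1 or 3. Members that differed between other groups were 2 without maternal-cross KO replicate 1 or 4, 1 and 2 without paternal-cross HET replicates 2 and 3, and 3 without paternal-cross KO replicate 1, 2 or 3.

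Of 773 gaps of the 33 named genes under the alternatives, 26 moved by more than the spread between replicates and 0 changed sign. Most alternatives could not change the sign. Leaving out a library can only keep or widen a gap, and other pseudocounts or abundance bands keep its sign. Only the other scalings and thinning could have reversed one. Depth limits how firmly the members are set apart, since the Poisson intervals of the nearest libraries overlapped for 62 of the 80.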
